A study of Homo sapiens with 17 samples.

Results

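Aminoacyl-tRNA synthetases are the enzymes that load each amino acid onto its tRNA. Genes were taken where the probe set had a single symbol made of an amino acid letter, ARS and a 1 or 2, with EPRS1, FARSA and FARSB added. This gave 31 of the 17687 genes measured, each with 1 probe set: 16 cytoplasmic enzymes (symbols ending in 1, with FARSA and FARSB) and 15 mitochondrial enzymes (symbols ending in 2). GARS1 and KARS1 code for both the cytoplasmic and the mitochondrial enzyme and were kept with the cytoplasmic class.

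Cells make proteins in the cytoplasm and, separately, inside mitochondria, and most amino acids have a separate nuclear gene for the enzyme of each compartment. Several cytoplasmic enzymes sit together in a multisynthetase complex, which holds EPRS1, IARS1, LARS1, KARS1 and RARS1 among others. Many cytoplasmic synthetase genes are targets of ATF4, the transcription factor of the amino acid response, which is made when the kinases of translation factor eIF2 are active.

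Expression was measured on 17 Affymetrix arrays of human breast cell lines, as log2 signal. In MDA-MB-231, a mesenchymal triple-negative breast cancer line, cells were given Maraviroc (an antiviral drug used against HIV) at IC20 or IC50 in ethanol, or DZH_2 (a compound known here by its code name) at IC20 or IC50 in DMSO. The controls received ethanol or DMSO alone, and each of these 6 groups had 2 arrays, with 1 further array of untreated cells. Arrays titled MCF10, a non-tumorigenic mammary epithelial line, came from cells given DZH_2 at IC20 or IC50, DMSO, or nothing, with 1 array each. Cells were seeded for 24 h before 48 h of treatment. The names IC20 and IC50 stand for doses giving 20% and 50% inhibition, and the labels state no molar value for them.

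The 2 Maraviroc IC50 arrays stood apart from the others. Their replicate correlation across genes was 0.960, against 0.984 to 0.991 in the other 5 replicated groups, and the SD between replicates was 0.546, against 0.277 to 0.366. On these arrays 8 of 10 markers of the mesenchymal line also fell against ethanol, where 15% of all genes fell. The mean log2 signal of the 10 was 9.57 in Maraviroc IC50 and 11.7 in ethanol. Of 8 epithelial markers 3 fell and 1 rose, and of 8 basal epithelial markers 2 fell and none rose. Of 9 fibroblast markers 1 fell and 1 rose. The part of these shifts in the results was not tested. In bulk arrays fewer cells of a type and less RNA per cell cannot be told apart. The 4 arrays titled MCF10 carry MDA-MB-231 as their cell line in another label. Their 8 measured basal epithelial markers had a mean log2 signal of 7.97 to 9.43, against 5.18 to 6.50 on the MDA-MB-231 arrays, but 5 of 8 epithelial markers, CDH1 and EPCAM among them, were near the negative controls in every MCF10 group, and 9 fibroblast markers averaged 7.73 to 8.53, against 5.98 to 6.36. The titles were followed, and the identity of the line was not settled by these markers.

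The promoters of the synthetase genes are shown first because the amino acid response acts through a short element in them. The element searched was TGATGNAAN, the consensus of the C/EBP-ATF response element, on both strands of the 300 bases around each start site (250 before, 50 after) in RefSeq for GRCh38.p14. Of the 31 genes 27 had an entry, and AARS2, LARS1, VARS2 and YARS1 had none. A match was present in 6 of 14 cytoplasmic genes (42.9%) and 1 of 13 mitochondrial genes (7.69%), against 1215 of 27305 genes with an entry (4.45%). The ATF4 and amino acid response list, which holds no synthetase, had 8 of 27 genes with a match (29.6%). The windows below give 30 bases, 5′ to 3′ on the gene's own strand, with the match in capitals.
AARS1 (chr16:70289675-70289704, minus strand): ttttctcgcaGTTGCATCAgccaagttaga
CARS1 (chr11:3057407-3057436, minus strand): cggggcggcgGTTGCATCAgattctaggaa
GARS1 (chr7:30594834-30594863, plus strand): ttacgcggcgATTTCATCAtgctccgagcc
IARS1 (chr9:92293692-92293721, minus strand): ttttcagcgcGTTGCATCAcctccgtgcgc
NARS1 (chr18:57621803-57621832, minus strand): ctacgctctcTGATGCAACgccggaatcgc
TARS1 (chr5:33440956-33440985, plus strand): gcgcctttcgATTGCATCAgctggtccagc
YARS2 (chr12:32756075-32756104, minus strand): tccacactgcTGATGGAAAaattaagttta

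In 5 of these 7 genes the element lay in reverse orientation and ended in the letters CATCA, and in NARS1 and YARS2 it read forward. FARSB, the member that moved most below, had no match. Its 250 bases before the start site are printed beside those of GARS1, where the match is in capitals. FARSB had 1 listed start site and GARS1 had 2, of which the one with the match is shown. The stretches differ in base composition as well: G and C made up 44.4% of the FARSB stretch and 65.2% of the GARS1 stretch. A match is a description of letters and not a site shown to be bound.
FARSB (chr2:222656093-222656342, minus strand): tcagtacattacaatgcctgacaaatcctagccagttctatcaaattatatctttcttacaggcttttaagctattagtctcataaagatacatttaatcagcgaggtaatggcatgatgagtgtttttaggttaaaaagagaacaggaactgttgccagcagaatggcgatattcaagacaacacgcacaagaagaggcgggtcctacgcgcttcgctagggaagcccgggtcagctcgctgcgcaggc
GARS1 (chr7:30594628-30594877, plus strand): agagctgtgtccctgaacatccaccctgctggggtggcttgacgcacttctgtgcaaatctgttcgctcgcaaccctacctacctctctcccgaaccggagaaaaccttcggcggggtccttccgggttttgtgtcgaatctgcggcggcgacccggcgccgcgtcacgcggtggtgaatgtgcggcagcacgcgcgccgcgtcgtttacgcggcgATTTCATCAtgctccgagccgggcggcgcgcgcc

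**Figure D1:**
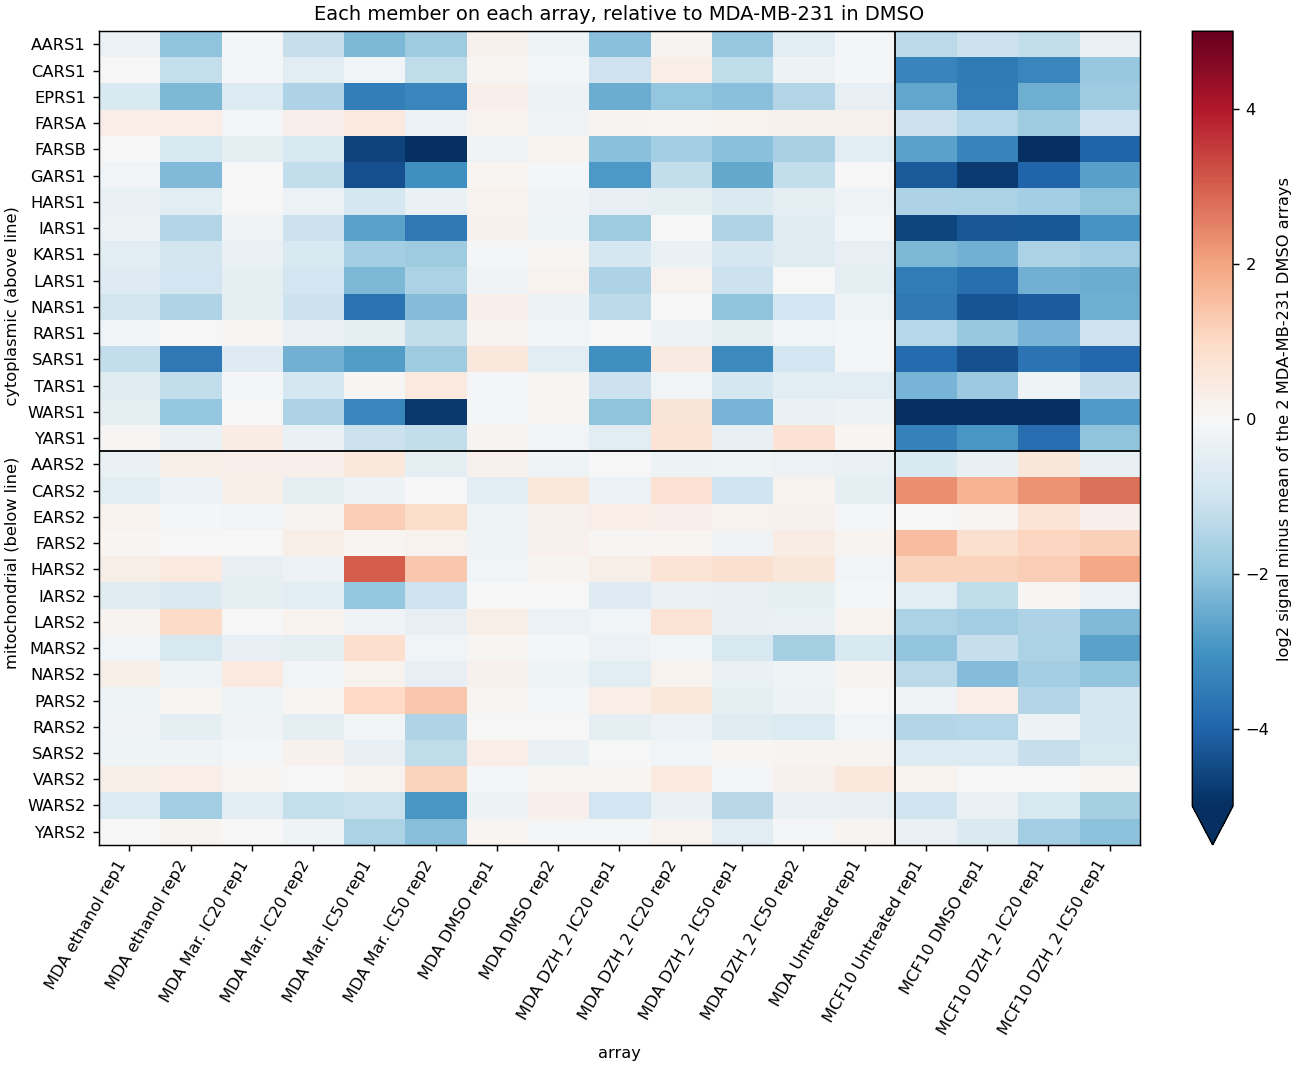
Log2 signal of each of the 31 genes (down the page, cytoplasmic above the line and mitochondrial below it) on each of the 17 arrays (across), minus that gene's mean over the 2 DMSO arrays of MDA-MB-231. Blue is lower and red is higher than in DMSO; values under -5 share the darkest blue. Most cytoplasmic genes are lower on the Maraviroc IC50 arrays and on the 4 MCF10 arrays, while CARS2, FARS2 and HARS2 are higher on the MCF10 arrays.

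With Maraviroc at IC50, 7 of the 16 cytoplasmic synthetase genes fell and 1 rose in MDA-MB-231. Of the 15 mitochondrial genes 3 rose and 1 fell. The median log2 difference from ethanol was -1.02 over the cytoplasmic genes and 0.02 over the mitochondrial genes, and 0.11 over all genes. The test was limma, with p-values adjusted by Benjamini-Hochberg across the whole array and called under 0.05. It called 12 of the 31 genes (38.7%), against 27% of all genes (12% rose and 15% fell). By class, 50% of the cytoplasmic and 26.7% of the mitochondrial genes were called. The mitochondrial share was close to the 27% of all genes, a figure that counts genes near the floor as well. In MDA-MB-231, 30 of the 31 synthetase genes had a mean above the negative control level in at least 1 replicated group. Of all 17687 genes, 11570 did. The share called among those 11570 is not given, so 38.7% against 27% does not show an excess of synthetase genes. The same limit applies to the shares of all genes in the other comparisons. The groups did not overlap for 20 of the 31 genes, against 57.8% of all genes. The difference between the shares of members and of all genes was not tested.

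FARSB codes for the beta subunit of phenylalanyl-tRNA synthetase, an enzyme of paired alpha and beta subunits. Its log2 signal was 8.64 and 8.29 in Maraviroc IC50, against 13.29 and 12.48 in ethanol. All 4 arrays were well separated, and the fall was 4.42 ± 0.32 on the log2 scale (SE), or 21.4-fold (limma, adjusted p = 2.75e-06). FARSA, the alpha subunit of the same enzyme, had 14.60 and 13.82 in Maraviroc IC50, against 14.41 and 14.43 in ethanol. Its groups overlapped, and its log2 difference of -0.21 ± 0.29 did not pass (adjusted p = 0.64), with a 95% interval of -0.84 to 0.41. The interval for FARSB, -5.12 to -3.72, did not overlap that for FARSA, and the difference between the subunits itself was not tested. FARS2, which codes for the mitochondrial enzyme for phenylalanine, had a log2 difference of 0.07 ± 0.27 (adjusted p = 0.89).

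The other cytoplasmic falls were smaller, and all but that of KARS1 were less even between replicates than FARSB in at least 1 of the groups. WARS1, the tryptophanyl enzyme, which is also induced by interferon gamma, had 11.51 and 9.94 in Maraviroc IC50, against 14.32 and 12.84 in ethanol, a log2 difference of -2.86 ± 0.87 (limma, adjusted p = 0.0275). GARS1, the glycyl enzyme, had 10.64 and 11.96, against 14.91 and 12.82, a difference of -2.56 ± 0.73 (limma, adjusted p = 0.0197). Replicates of one group differed by more than 1 on the log2 scale in both groups for both genes, although the groups did not overlap. IARS1, the isoleucyl enzyme of the multisynthetase complex, had 10.50 and 9.60 in Maraviroc IC50, against 12.90 and 11.68 in ethanol, a difference of -2.24 ± 0.58 (limma, adjusted p = 0.0128).

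EPRS1 codes for a fused enzyme that loads both glutamate and proline. It had 7.67 and 7.88 in Maraviroc IC50, against 10.38 and 8.89 in ethanol, a log2 difference of -1.86 ± 0.45 (limma, adjusted p = 0.00884). NARS1, the asparaginyl enzyme, had 8.88 and 10.38 in Maraviroc IC50, against 11.65 and 11.07 in ethanol. Its fall was 1.73 ± 0.54 (limma, adjusted p = 0.0305). KARS1, the lysyl enzyme, fell by 1.03 ± 0.27 (limma, adjusted p = 0.0138). Without ethanol replicate 1, the ethanol array with the higher cytoplasmic signal, 6 of the 31 genes passed in place of 12, and FARSB was the only cytoplasmic fall among them. With the 4 compared arrays alone 4 passed, FARSB, IARS1, WARS1 and YARS2, and with array weights 7 passed. FARSB and YARS2 passed in each of the 13 alternatives tried.

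TARS1, the threonyl enzyme, went the other way. It had 12.92 and 13.35 in Maraviroc IC50, against 12.24 and 11.63 in ethanol, so both treated arrays were higher, and the log2 difference was 1.20 ± 0.38 (limma, adjusted p = 0.0312). It no longer passed in 5 of the 13 alternatives, leaving out ethanol replicate 2 or Maraviroc IC50 replicate 2 among them. Its promoter held the same element as those of GARS1, IARS1 and NARS1, which fell.

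Among the mitochondrial genes HARS2, the histidyl enzyme, rose most. It had 11.32 and 9.65 in Maraviroc IC50, against 8.58 and 8.78 in ethanol, a log2 difference of 1.81 ± 0.42 (limma, adjusted p = 0.00625). HARS1, the cytoplasmic histidyl enzyme, is the adjacent gene on chromosome 5 in RefSeq, and had 11.64 and 12.18 against 12.18 and 11.99, a difference of -0.18 ± 0.27 (limma, adjusted p = 0.69). PARS2, the prolyl enzyme, had 9.19 and 9.53 in Maraviroc IC50, against 7.999 and 8.278 in ethanol, and rose by 1.22 ± 0.26 (limma, adjusted p = 0.00354). EARS2, the glutamyl enzyme, rose by 1.03 ± 0.26 (limma, adjusted p = 0.00983), but its ethanol mean was near the negative controls, so the size of that rise depends on the floor.

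EARS2 and PARS2 load in mitochondria the amino acids that EPRS1 loads in the cytoplasm, and the cytoplasmic transcript fell while both mitochondrial ones rose. YARS2, the mitochondrial tyrosyl enzyme, was the exception in its class. It had 6.81 and 6.26 in Maraviroc IC50, against 8.37 and 8.55 in ethanol, a log2 difference of -1.93 ± 0.28 (limma, adjusted p = 0.000318). Among 9 amino acids with 1 gene of each class measured, the cytoplasmic log2 difference lay below the mitochondrial one in 7 and above it in 2 (serine and tyrosine). Alanine was left out because AARS2 was near the negative controls in every group.

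**Figure D2:**
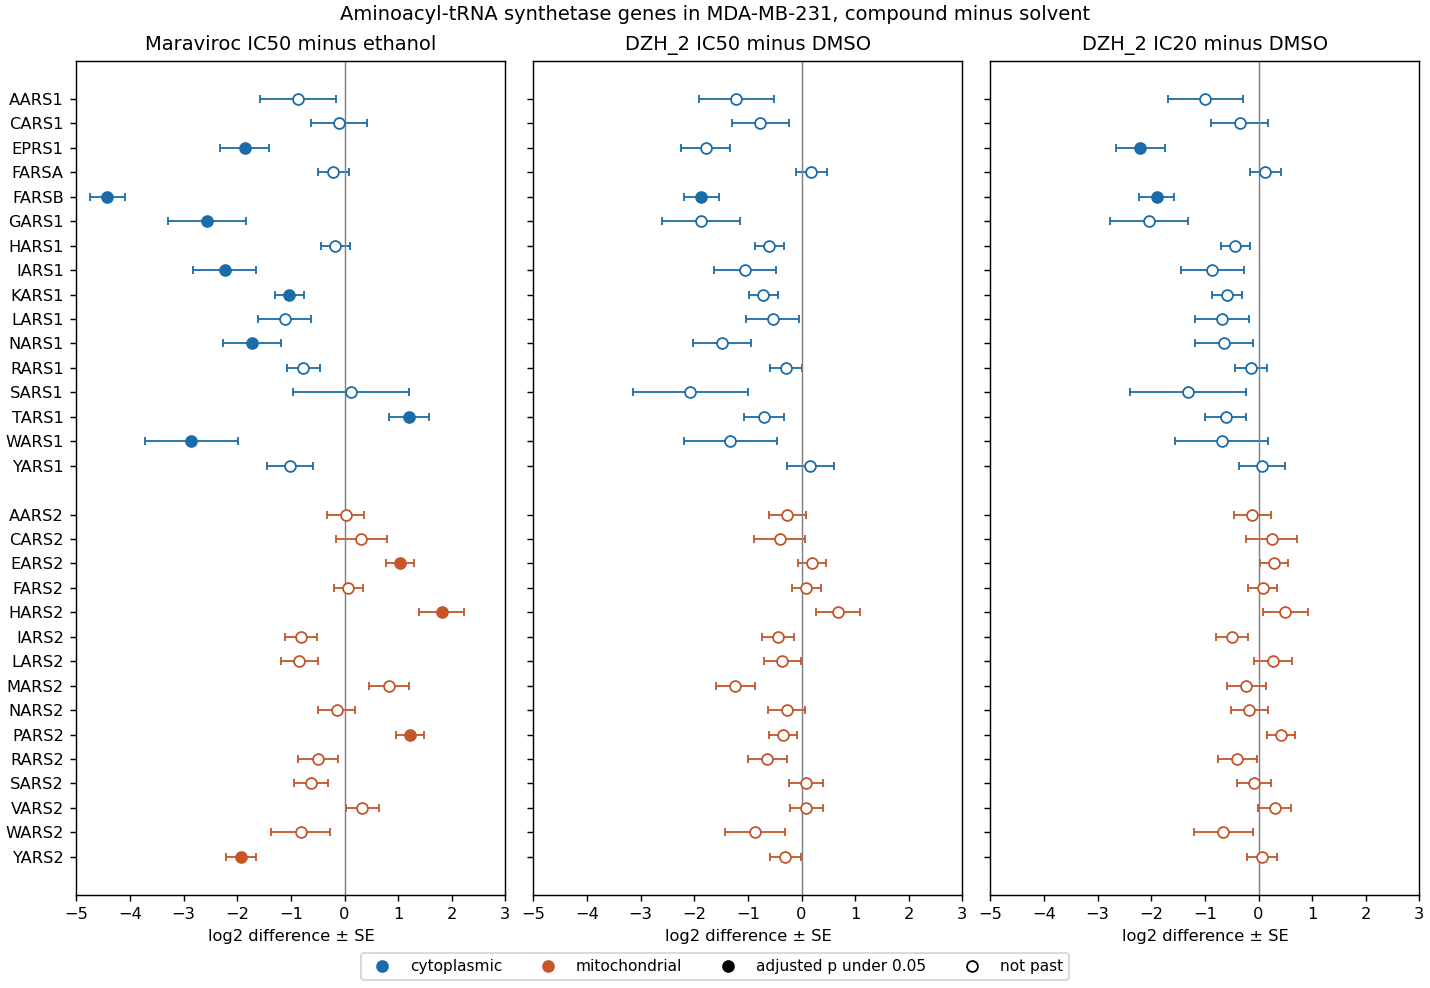
Log2 difference of each gene from its solvent in MDA-MB-231 (horizontal axis; bars are the SE from limma, 2 arrays per group) for Maraviroc IC50, DZH_2 IC50 and DZH_2 IC20. Filled points passed adjusted p under 0.05: 12 genes for Maraviroc IC50, FARSB for DZH_2 IC50, and FARSB and EPRS1 for DZH_2 IC20. Most cytoplasmic points lie left of 0 in all 3 panels.

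The factors that work with these enzymes were described with the same test, and the counts in the lists below stand beside the 27% of all genes called in this comparison. Of 13 genes for the eIF2 kinases, eIF2 and its exchange factor, 5 fell and 1 rose with Maraviroc at IC50. EIF2AK1, a kinase of eIF2, fell by 2.69 ± 0.26 (limma, adjusted p = 1.69e-05), and the eIF2 subunits EIF2S1 and EIF2S2 fell by 2.38 ± 0.29 and 2.73 ± 0.46. Of 7 genes for elongation and termination 4 fell, ABCE1, the ribosome recycling factor, by 3.73 ± 0.37 and GSPT1, a termination factor, by 2.39 ± 0.35. Of 16 mitochondrial translation factors 4 fell and none rose (25%, near the share of all genes), QRSL1, a subunit of the mitochondrial amidotransferase for glutamine, by 1.80 ± 0.32. AIMP1, the only measured scaffold gene of the multisynthetase complex, had a log2 difference of -0.61 (adjusted p = 0.205).

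The ATF4 and amino acid response list did not move as 1 group. Of its 34 measured genes 8 rose and 6 fell, with a median of 0.09. DDIT3, CEBPB, PPP1R15A and SESN2, which are stress-response genes, rose by 4.04, 2.12, 2.69 and 1.87. Among those that fell, PHGDH, an enzyme of serine synthesis, had a log2 difference of -3.48 and XPOT, which exports tRNA from the nucleus, of -2.61. Of 12 RNA polymerase III genes, which serve tRNA transcription, 3 rose and 2 fell. Of 10 MYC and nucleolar growth genes 2 rose and 5 fell, and of 14 interferon gamma genes, the response to which WARS1 belongs, 1 rose and 3 fell (28.6%, again near the share of all genes). Of 6 relatives of the synthetases and editing factors, TRNT1 rose and none fell.

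Maraviroc at IC20 gave no call. None of the 31 genes passed by limma, none had an unadjusted p under 0.05, and 0% of all genes passed (309 had an unadjusted p under 0.05), while the groups did not overlap in 30.4% of all genes. The genes with the smallest p were HARS2, LARS2, TARS1 and HARS1. HARS2 had 7.88 and 8.01 in Maraviroc IC20, against 8.58 and 8.78 in ethanol, a log2 difference of -0.74 ± 0.42 (limma, adjusted p = 1). FARSB had 12.79 and 12.52, against 13.29 and 12.48, a difference of -0.23 with a 95% interval of -0.93 to 0.47.

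Set against each other, the doses of Maraviroc differed. Between IC50 and IC20 9 genes fell and 3 rose, 12 of 31 (38.7%), against 26.7% of all genes (11.9% rose, 14.8% fell, and groups did not overlap in 59.7%). The log2 difference at IC50 from IC20 was -4.19 ± 0.32 for FARSB (limma, adjusted p = 4.7e-06), -3.28 ± 0.87 for WARS1 and -3.11 ± 0.73 for GARS1. HARS2, PARS2 and EARS2 were higher by 2.55 ± 0.42, 1.23 ± 0.26 and 1.08 ± 0.26. Without Maraviroc IC20 replicate 1 the count was 5.

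With DZH_2 at IC50 FARSB fell, and no other synthetase gene passed the threshold. FARSB had 11.16 and 11.63 in DZH_2 IC50, against 13.10 and 13.43 in DMSO, so the groups did not overlap and the fall was 1.87 ± 0.32 on the log2 scale, or 3.65-fold (limma, adjusted p = 0.0183). That is 1 of 31 genes (3.23%), against 1.57% of all genes (0.582% rose and 0.984% fell), and 7 of the 31 (22.6%) had an unadjusted p under 0.05, against 15.1% of all genes. FARSA had 14.25 and 14.30, against 14.26 and 13.92, a difference of 0.18 with a 95% interval of -0.44 to 0.81. With any 1 of the 4 arrays left out no synthetase gene passed, and the fall of FARSB then ranged from 1.61 to 2.10 over the alternatives tried.

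The other genes with the smallest p in this comparison were EPRS1, MARS2 and NARS1. EPRS1 had 9.04 and 9.67 in DZH_2 IC50, against 11.38 and 10.91 in DMSO, a difference of -1.79 ± 0.45 (limma, adjusted p = 0.0727). MARS2, the mitochondrial methionyl enzyme, had 6.47 and 5.61, against 7.33 and 7.21, a difference of -1.23 ± 0.37 (limma, adjusted p = 0.12), with its treated mean near the negative controls. NARS1 had a difference of -1.49 ± 0.54 (limma, adjusted p = 0.2). EPRS1 and MARS2 passed when the Maraviroc IC50 arrays were left out of the fit; over the alternatives tried their adjusted p by limma ranged from 0.0147 to 0.456 and from 0.0335 to 0.5. The cytoplasmic median was -0.91 and the mitochondrial median -0.30, against 0.04 over all genes. Of the 16 cytoplasmic genes 12 had both DZH_2 arrays below both DMSO arrays and none had both above. Over all genes the groups did not overlap in 50%, with 4149 of 17687 genes below DMSO and 4687 above. By the same rule 11 of the 16 lay below DMSO in ethanol and 1 above, against 3708 and 3758 of all genes.

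With DZH_2 at IC20 FARSB and EPRS1 fell. FARSB had 11.16 and 11.56 in DZH_2 IC20, against 13.10 and 13.43 in DMSO, a fall of 1.90 ± 0.32 (limma, adjusted p = 0.0243). EPRS1 had 8.67 and 9.20, against 11.38 and 10.91, a log2 difference of -2.21 ± 0.45 (limma, adjusted p = 0.0463). These are 2 of 31 genes (6.45%), against 0.871% of all genes (0.435% rose and 0.435% fell, and groups did not overlap in 44.8%), and neither passed with any 1 of the 4 arrays left out. Of the 31 genes 3 (9.68%) had an unadjusted p under 0.05 by limma, against 12% of all genes. The groups did not overlap for 14 of the 31, against 44.8% of all genes. GARS1 had 12.17 and 13.79, against 15.11 and 14.93, a difference of -2.05 ± 0.73 (limma, adjusted p = 0.253). KARS1 had a difference of -0.59 ± 0.27 (limma, adjusted p = 0.421). The cytoplasmic median was -0.66 and the mitochondrial median 0.07. EPRS1 was not called against all 5 control arrays of MDA-MB-231.

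The doses of DZH_2 were not told apart. Between IC50 and IC20 no synthetase gene and 0% of all genes passed by limma, while the groups did not overlap in 33.7% of all genes, with 2 of the 31 and 721 of all genes at an unadjusted p under 0.05. PARS2 and MARS2 had the smallest p, with differences of -0.77 ± 0.26 and -1.01 ± 0.37 (limma, adjusted p = 0.999 for both). FARSB differed by 0.03 with a 95% interval of -0.66 to 0.73. Among the lists, 2 of 16 mitochondrial translation factors fell at IC50 (TFAM, which packages mitochondrial DNA, by 1.42 ± 0.29, and MTRFR by 1.20 ± 0.27), and TFAM at IC20 by 1.66 ± 0.29. POLR3B, a subunit of RNA polymerase III, fell from DMSO by 1.64 ± 0.37 at IC50 and by 1.77 ± 0.37 at IC20. It was the 1 of 12 genes called in that list at each dose (8.33%, against the same shares of all genes). No gene of the ATF4 list passed with DZH_2 at either dose by limma, with 10 of 34 at IC50 (29.4%, against 15.1% of all genes) and 5 of 34 at IC20 (14.7%, against 12% of all genes) at an unadjusted p under 0.05.

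**Figure D3:**
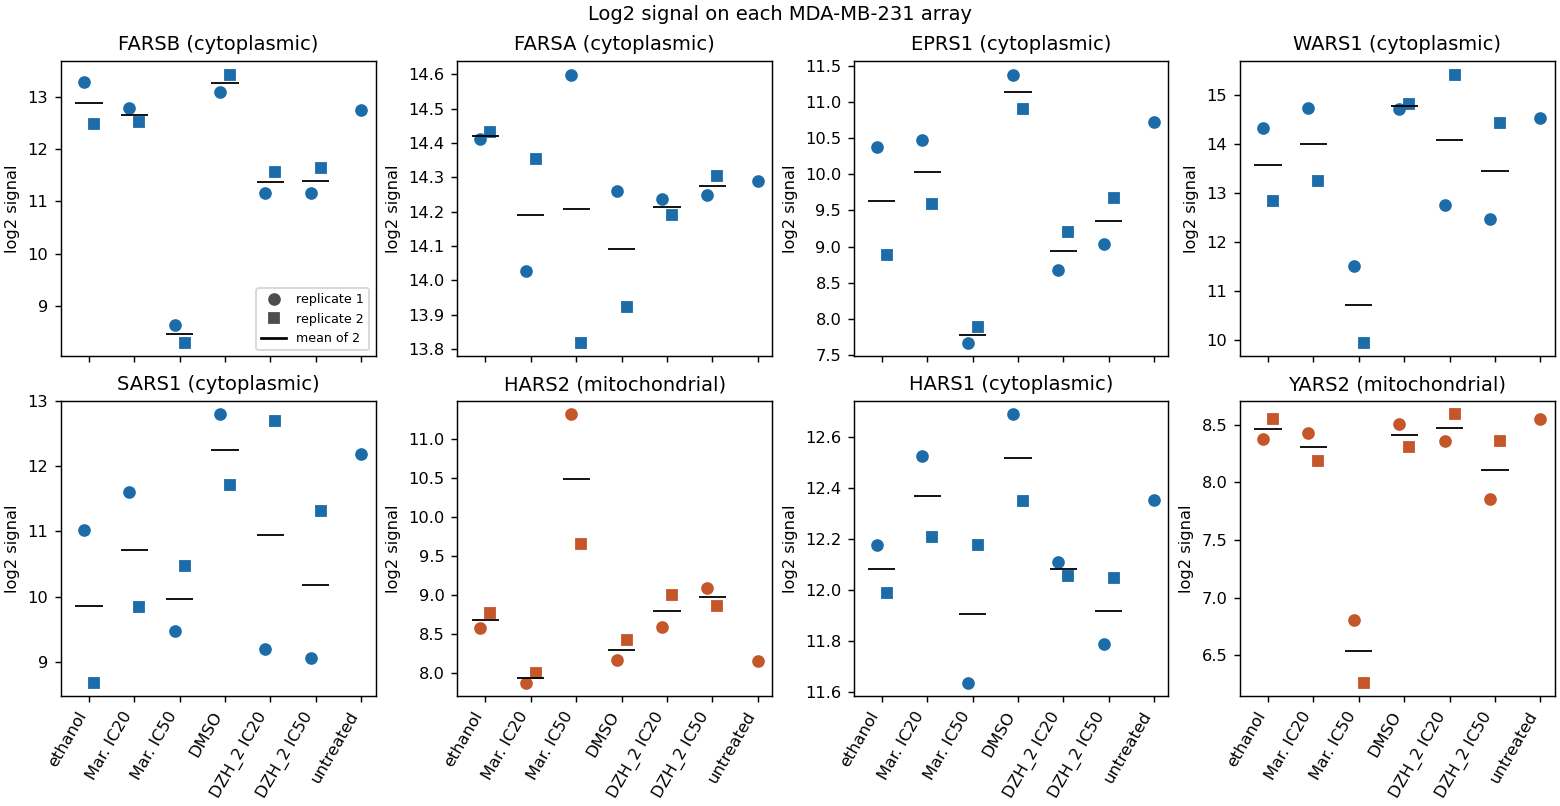
Log2 signal (vertical axis, a scale of its own in each panel) of 8 synthetase genes on each MDA-MB-231 array, with circles for replicate 1, squares for replicate 2 and a bar for the mean of 2. FARSB has 8.64 and 8.29 with Maraviroc at IC50 and 11.16 to 11.63 with DZH_2, and FARSA lies between 13.82 and 14.60 on every array shown; SARS1 replicates lie up to 3.50 apart.

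To set the compounds side by side, each difference from solvent for Maraviroc was subtracted from that for DZH_2 at the same IC level. At IC50 4 of the 31 genes differed (12.9%), against 6.17% of all genes (4.02% higher and 2.15% lower). With an unadjusted p under 0.05 by limma there were 6 of the 31 (19.4%), against 19.7% of all genes. For FARSB the difference from solvent was less negative with DZH_2 (-1.87) than with Maraviroc (-4.42), by 2.55 ± 0.45 (limma, adjusted p = 0.00633). For YARS2 it was less negative with DZH_2 (-0.30) than with Maraviroc (-1.93), by 1.63 ± 0.40 (limma, adjusted p = 0.0307). For MARS2 the difference from solvent was lower with DZH_2 than with Maraviroc, by -2.06 ± 0.52 (limma, adjusted p = 0.0359). For PARS2 it was lower by -1.57 ± 0.36 (limma, adjusted p = 0.0237). The MARS2 mean in DZH_2 IC50 was near the negative controls. EPRS1 differed by 0.07, with a 95% interval of -1.32 to 1.46. The count was 1 without DZH_2 IC50 replicate 2, DMSO replicate 1 or DMSO replicate 2, and FARSB was the gene that remained. The count was 2 without either ethanol replicate. FARSB passed in each of the 16 alternatives tried.

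At IC20 none of the 31 genes and 0% of all genes differed between the compounds by limma, with 3 of the 31 and 1273 of all genes at an unadjusted p under 0.05. EPRS1 had a difference of -2.60 ± 0.64 and FARSB of -1.67 ± 0.45 (limma, adjusted p = 0.475 for both). The solvents had no call either. Between ethanol and DMSO 0% of all genes passed by limma (groups did not overlap in 42.2%, and 1352 had an unadjusted p under 0.05), and 7 of the 31 synthetase genes had an unadjusted p under 0.05. EPRS1 had 10.38 and 8.89 in ethanol, against 11.38 and 10.91 in DMSO, a difference of -1.51 ± 0.45 (limma, adjusted p = 0.535), and KARS1 had -0.72 ± 0.27 (limma, adjusted p = 0.6). The cytoplasmic median was -0.83 between the solvents and the mitochondrial median -0.02; without ethanol replicate 2 the gap between the class medians was -0.18.

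The cytoplasmic genes also varied strongly between replicates of one group. The SD between replicates, pooled over the 6 groups, had a median of 0.607 over the cytoplasmic genes, 0.374 over the mitochondrial genes, 0.310 over all genes and 0.661 over the ATF4 list. SARS1, the seryl enzyme, had the largest of the 31 at 1.53, followed by WARS1 at 1.22, GARS1 at 1.01 and AARS1, the alanyl enzyme, at 0.967. FARSB, with 0.334, FARSA, with 0.264, and KARS1, with 0.226, were much steadier. Cytoplasmic genes with the promoter element had a median SD of 0.748 (6 genes) and those with an entry and no match 0.312 (8 genes), SARS1 and WARS1 among the latter. The SD ranged from 0.439 to 1.01 with the element and from 0.226 to 1.53 without it. The difference was not tested.

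SARS1 shows how far 1 array can stand from its replicate. It had 9.19 and 12.69 in DZH_2 IC20, and 9.05 and 11.31 in DZH_2 IC50, against 12.79 and 11.71 in DMSO. It had 9.47 and 10.46 in Maraviroc IC50, against 11.03 and 8.68 in ethanol. ASNS, the asparagine synthetase gene of the amino acid response, had 9.40 and 14.70 in DZH_2 IC20, and 10.26 and 13.26 in DZH_2 IC50, against 15.20 and 14.96 in DMSO. In 6 of 6 replicated groups the array with the higher mean of the ATF4 list also had the higher mean of the cytoplasmic synthetases, and SARS1 was higher on that array as well in 6 of 6. In Maraviroc IC50 both means differed little between replicates, by 0.03 for the cytoplasmic enzymes and 0.05 for the list. The part of the ATF4 list's shift between replicates in the differences above was not tested. The median log2 difference between replicates 2 and 1 over the cytoplasmic genes was 1.28 in DZH_2 IC20, 0.97 in DZH_2 IC50, -0.64 in Maraviroc IC20 and -0.71 in ethanol, against 0.23, 0.07, -0.04 and -0.03 over the mitochondrial genes. In DMSO this median was -0.27 over the cytoplasmic genes, against 0.04 over the mitochondrial genes. Maraviroc IC50 went the other way, with 0.07 over the cytoplasmic genes and a larger shift of -0.55 over the mitochondrial genes. The mean of the mitochondrial enzymes moved the same way as that of the ATF4 list in 4 of 6 groups.

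**Figure D4:**
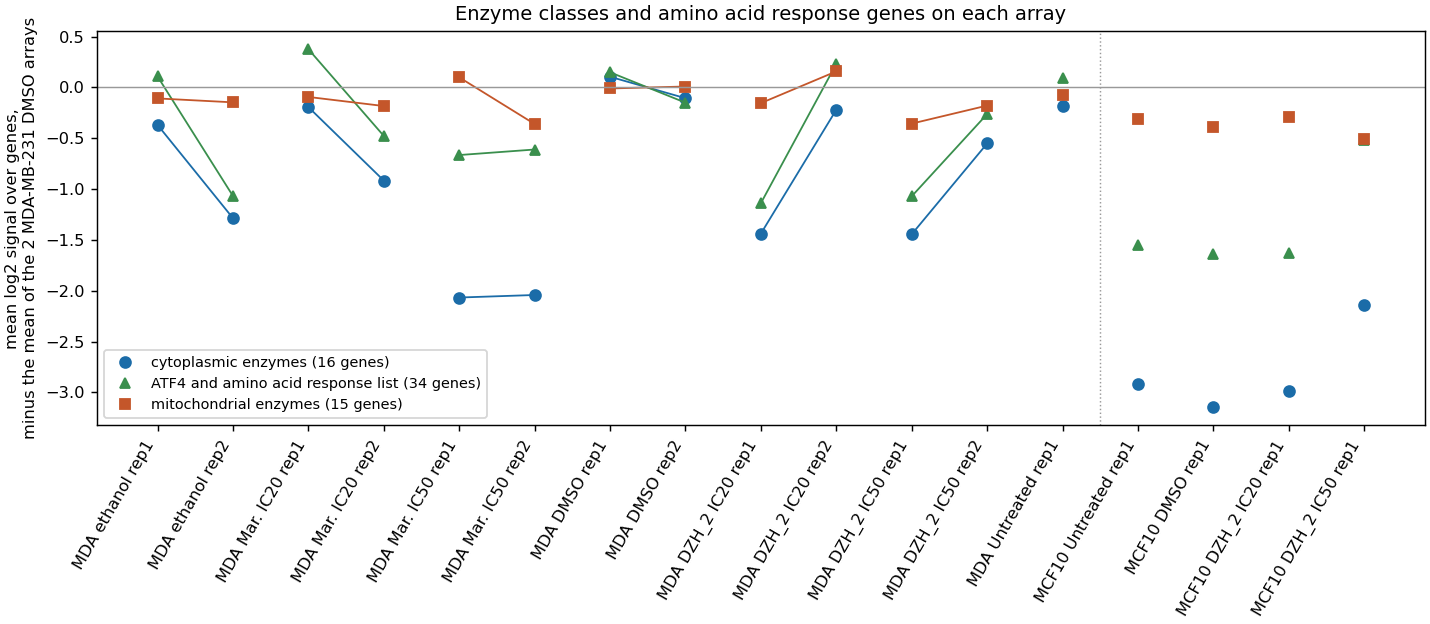
Mean log2 signal of the 16 cytoplasmic enzymes, the 34 genes of the ATF4 and amino acid response list and the 15 mitochondrial enzymes on each of the 17 arrays, each minus its mean over the 2 MDA-MB-231 DMSO arrays (vertical axis). Lines join replicates of one group and the dotted line parts MDA-MB-231 from MCF10. Cytoplasmic enzymes and the ATF4 list differ between replicates in the same direction in all 6 groups of 2 arrays; in Maraviroc IC50 both lines are nearly flat.

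In MCF10 each condition had 1 array, so values are given with no test. The 2 MCF10 control arrays (DMSO and untreated) had lower signals than the 3 MDA-MB-231 arrays of DMSO and untreated cells for the whole cytoplasmic class: 16 of 16 genes were lower by at least 1 on the log2 scale, against 24% of all genes, with a median difference of -3.04. Signals also spread less on these 2 MCF10 arrays. Their interquartile range over all genes was 3.51 and 3.55, against 4.41 to 4.65 on the 3 MDA-MB-231 arrays. Negative control medians were 5.03 and 5.01, against 4.71 to 4.88. The part of this in the class difference was not tested. In MDA-MB-231 11570 of the 17687 genes had a mean above the negative control level in at least 1 replicated group. The others had little room to be lower. WARS1 averaged 9.63 in MCF10 and 14.70 in MDA-MB-231, and GARS1 10.54 in MCF10 and 15.03 in MDA-MB-231. Of the 15 mitochondrial genes 4 were lower by at least 1 and 3 were higher, against 12.7% of all genes higher. CARS2, the cysteinyl enzyme, averaged 9.91 in MCF10 and 7.74 in MDA-MB-231, and HARS2 9.40 in MCF10 and 8.25 in MDA-MB-231. AARS2, EARS2, LARS2 and NARS2 were near the negative controls on all 4 MCF10 arrays, and MARS2 on 3 of them, so their differences there are bounded by the floor. The ATF4 list had 24 of 34 genes lower by at least 1 in MCF10 and 6 higher.

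With DZH_2 in MCF10, 4 of the 31 genes differed from DMSO by at least 1 at both doses in 1 direction, against 9.41% of all genes (4.52% higher and 4.88% lower). EPRS1 had 7.64 in DMSO, 8.72 at IC20 and 9.38 at IC50, and LARS1, the leucyl enzyme, had 10.21, 11.57 and 11.52. PARS2 had 8.51 in DMSO, 6.74 at IC20 and 7.34 at IC50, and YARS2 had 7.70, 6.69 and 6.34. EPRS1 and LARS1 were thus higher and PARS2 and YARS2 lower than on the DMSO array at both doses. By the mean of the 2 doses the highest were GARS1 (1.45), EPRS1 (1.40), LARS1 (1.33) and IARS2 (1.16), and the lowest PARS2 (-1.47), FARSB (-1.25), YARS2 (-1.19) and MARS2 (-0.97, a value set by the floor). FARSB had 9.93 in DMSO, 8.09 at IC20 and 9.26 at IC50, so it was lower than DMSO at both doses here too. The untreated MCF10 array differed from DMSO by 0.92 for EPRS1 and 0.64 for FARSB, which is the only measure of spread between MCF10 control arrays.

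**Figure D5:**
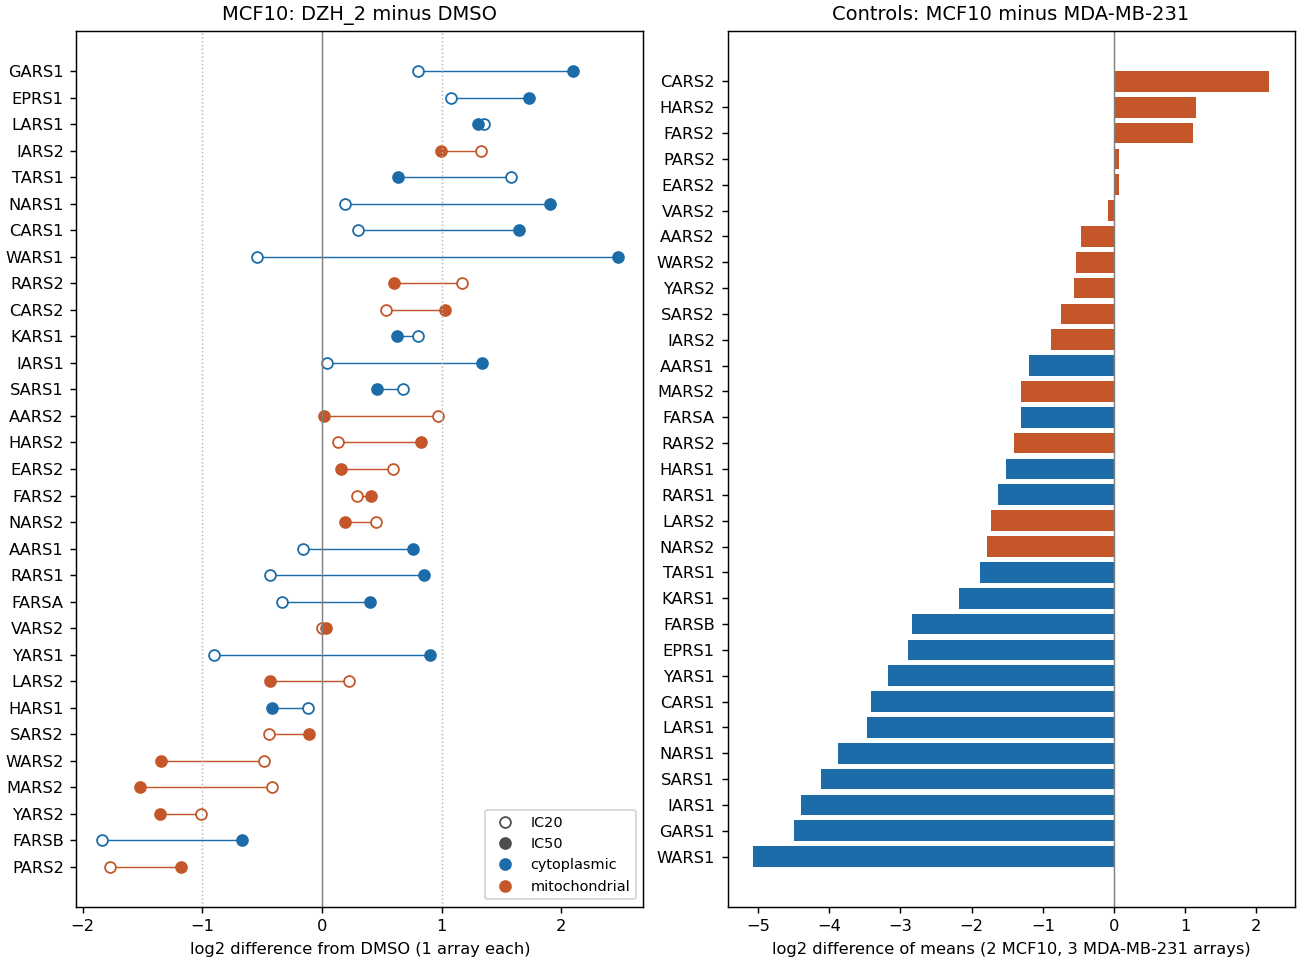
Left: log2 difference of DZH_2 from DMSO in MCF10 for each gene (1 array per condition; open circles IC20, filled circles IC50, dotted lines at -1 and 1). Right: mean of the 2 MCF10 control arrays minus mean of the 3 MDA-MB-231 control arrays (DMSO and untreated). All 16 cytoplasmic values lie below -1, and CARS2, HARS2 and FARS2 lie above 1.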

How the data were processed

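The values are log2 signals deposited by the authors for 24351 probe sets on 17 arrays (range 2.15 to 19.56), prepared with the GeneChip WT PLUS kit per the labels' protocols; the labels name no method of summarising or normalizing them and no genome build. Groups follow the sample titles. Probe sets with 1 gene symbol (17709) gave 17687 genes, with the highest mean kept for 20 genes with several; 2903 were controls and 3739 had no gene listed. In MDA-MB-231, 12 arrays in 6 groups of 2 entered limma 3.58.1 (R 4.3.3; lmFit, contrasts.fit, eBayes; 6 residual degrees of freedom; 2-sided; Benjamini-Hochberg over all genes; adjusted p under 0.05). Nothing in the labels ties replicates to separate cultures; p-values therefore reflect array-to-array spread that may be technical only. Arrays carry no counting depth; their number limits precision. A group mean is near the negative controls below 6.10, the 75th percentile of 612 negative control probe sets. The fit was tested on simulated data.

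The members, 9 gene lists and 6 marker lists were chosen with earlier results of these data known. Genes were named by a rule: for each compound against solvent up to 6 largest rises and 6 largest falls past the threshold (or the 4 smallest p), for other tests the 3 largest each way (or the 2 smallest p), up to 4 members per list, and for MCF10 the 4 highest and 4 lowest; FARSA, SARS1, FARS2, AARS1, CARS2, HARS1 with Maraviroc IC50, ASNS, PHGDH and XPOT were named after their values were seen. Alternatives were array centring, quantile normalization, a filter on low signal, fits on fewer arrays, array weights, a mean trend, pooled controls, a replicate block and leaving out each replicate. Promoters come from RefSeq for GRCh38.p14.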

Additional observations from a re-analysis of the deposited data

Results flagged for a closer look

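For 6 genes every DZH_2 array lay on opposite sides of DMSO in the 2 cell lines. By the same rule 9.28% of all genes lay on opposite sides, and 4.94% were higher in MCF10 and lower in MDA-MB-231, as all 6 of these were (19.4% of the 31). The values below are the mean log2 difference of the IC20 and IC50 doses from DMSO, and the difference between the lines was not tested, since MCF10 has 1 array per condition. EPRS1 had 1.40 in MCF10 and -2.00 in MDA-MB-231, and GARS1 had 1.45 in MCF10 and -1.96 in MDA-MB-231. TARS1 had 1.11 in MCF10 and -0.66 in MDA-MB-231, and KARS1 had 0.71 in MCF10 and -0.65 in MDA-MB-231. Among mitochondrial genes, IARS2 had 1.16 in MCF10 and -0.46 in MDA-MB-231, and RARS2 had 0.89 in MCF10 and -0.52 in MDA-MB-231. The MCF10 values rest on a single DMSO array, and the untreated MCF10 array lay above it by 0.92 for EPRS1, 0.73 for IARS2 and 0.62 for GARS1. FARSB did not meet this pattern: it was below DMSO in both lines.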

How the results depend on the processing

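For genes picked by the naming rule in a comparison, no difference changed sign under any alternative tried. The gap between the class medians did change sign in 2 comparisons when a replicate was left out. Other differences given, among them those of FARSA, of HARS1 with Maraviroc IC50 and of FARSB with Maraviroc IC20, were not put through the alternatives. With each array centred on its median, the median of all genes for Maraviroc IC50 against ethanol moved to 0.28 from 0.11, and the same 12 synthetase genes were called in the same directions. For that comparison the number of synthetase genes called was 4 with the compared arrays alone, 7 with array weights, and 6 to 14 when leaving out 1 replicate. For DZH_2 IC50 against DMSO it was 4 with the compared arrays alone, 3 with array weights, 3 without the Maraviroc IC50 arrays, and 0 when leaving out any replicate. For DZH_2 IC20 against DMSO it was 1 with all 5 MDA-MB-231 control arrays and 0 when leaving out any replicate. For Maraviroc IC50 against IC20 leaving out a replicate gave 5 to 15. For DZH_2 minus Maraviroc at IC50 it was 2 with the compared arrays alone and 1 to 5 when leaving out a replicate. The cytoplasmic minus mitochondrial difference in class medians, leaving out 1 replicate, ranged from -1.28 to -0.65 for Maraviroc IC50 against ethanol, from -0.19 to 0.63 for Maraviroc IC20 against ethanol, from -1.01 to -0.32 for DZH_2 IC50 against DMSO, from -1.36 to -0.15 for DZH_2 IC20 against DMSO, from -1.40 to -0.73 for Maraviroc IC50 against IC20, from -0.20 to 0.66 for DZH_2 IC50 against IC20, from 0.17 to 0.82 for DZH_2 minus Maraviroc at IC50, from -1.43 to -0.45 for DZH_2 minus Maraviroc at IC20 and from -1.15 to -0.18 for ethanol against DMSO. The sign turned in Maraviroc IC20 against ethanol without Maraviroc IC20 replicate 1 (-0.06) or ethanol replicate 2 (-0.19), and in DZH_2 IC50 against IC20 without DZH_2 IC50 replicate 2 (-0.14) or DZH_2 IC20 replicate 1 (-0.20). These gaps, 0.26 and 0.07 with all arrays, lay within the spread between replicates. For single named genes, 458 values kept their call, 56 lost it and 6 gained it. The causes were not tested. With 1 array left in a group, its spread was assumed to be that of the others. Same-numbered arrays had correlated deviations of -0.08 to 0.30 and share only a number; with the replicate block the counts stayed at 12 for Maraviroc IC50, 1 for DZH_2 IC50, 2 for DZH_2 IC20 and 4 for DZH_2 minus Maraviroc at IC50. AARS2 lay near the negative controls in every group, so no change in it could be measured.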
